A study of Homo sapiens with 66 samples.

Results

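Halofuginol was compared with its solvent in AMO1 cells after 6 h of exposure. AMO1 is an established human multiple myeloma line, a malignant plasma cell, used here in its wild-type form and not made resistant to carfilzomib. The comparison takes in 6 RNAseq libraries chosen by their labels from the 66 of the series, 3 of cells given 1 µM halofuginol and 3 of cells given DMSO alone. The filter on low counts left 10593 of 20167 genes to be tested. Set beside it are 3 libraries each of AMO1 cells given 1 µM halofuginone (HFG) or 1 µM NCP22 for 6 h, and of AMO1 cells given 1 µM halofuginol or DMSO for 24 h. For the trend on GC content, 3 libraries each of 6 h with 1 µM NCP26 or with the proteasome inhibitor carfilzomib were read too. Polyadenylated RNA was sequenced at both ends from directional libraries. The study ran every condition of its AMO1 RNAseq in triplicate and harvested cells for each sample. Its methods speak of biological triplicates in general, but neither they nor the labels say whether these triplicates were separate cultures. The p-values therefore measure only the spread between these samples, which may be technical.

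Halofuginol and HFG are relatives of the plant alkaloid febrifugine, and halofuginol carries a hydroxyl group where HFG has a ketone. HFG occupies the proline and tRNA sites of prolyl-tRNA synthetase, which in human cytosol is one activity of the double enzyme EPRS1. When a cell runs short of a charged tRNA, the kinase GCN2 phosphorylates eIF2α, general translation slows, and translation of the transcription factor ATF4 increases. This is the integrated stress response (ISR). ATF4 and its partners bind composite elements near genes for amino acid synthesis, amino acid import and tRNA charging. Plasma cells make large amounts of secreted protein and depend on these supplies.

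Of 31 tested ATF4 and ISR targets 15 rose after 6 h of halofuginol, as did 8 of 14 amino acid transporters, and 6 of 19 heat shock genes fell. PSAT1, an enzyme of serine synthesis, rose by 0.90 ± 0.08 on the log2 scale (SE, 3 libraries against 3), ASNS, which makes asparagine, by 0.70 ± 0.07, and BCAT1, a transaminase of branched-chain amino acids, by 1.30 ± 0.13. HSPA8, the constitutive HSP70, was at -0.50 ± 0.05. ATF3 and DDIT3, transcription factors of a stronger or longer ISR, did not pass the test. At an edgeR quasi-likelihood adjusted p under 0.05, 383 genes were called, 3.62% of those tested. Of these 275 were higher (2.6%) and 108 lower (1.02%), and 13 of the higher (0.123%) and 6 of the lower genes (0.0566%) changed at least 2-fold.

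The count of calls depended on single libraries. DMSO replicate 3 lay nearer to the halofuginol libraries than its fellows did in the trend of expression on GC content described below, and without it 1410 genes were called (819 higher, 591 lower). Without DMSO replicate 1 or 2 there were 174 or 100 calls, and without halofuginol replicate 1, 2 or 3 there were 94, 97 or 122. In each of these 6 fits 61 genes were called (53 higher, 8 lower). Over all tested genes the groups did not overlap for 1208 higher (11.4%) and 1197 lower genes (11.3%). Total counts ran from 2913987 to 3183765 with DMSO and from 3139688 to 4067217 with halofuginol, and log2 CPM of replicates correlated at 0.979 to 0.984. Defining plasma cell markers were present in every library. Their summed level ran from 4809 to 5263 CPM with DMSO and from 4745 to 4790 CPM with halofuginol, and sums of myeloid and erythroid markers stayed at or under 3.15 CPM. The T and NK cell list summed to 202 to 215 CPM with DMSO and 202 to 207 CPM with halofuginol, with CD3D, CD3G, CD2 and GNLY at 0 in both. CD4 was the 1 member of this list that passed the filter. Mature B cell markers summed to 156 to 199 CPM with DMSO and 153 to 163 CPM with halofuginol. Fibroblast and epithelial markers summed to 7.85 to 11.9 CPM with DMSO and 8.87 to 10.3 CPM with halofuginol. CPM here and below are normalised read counts relative to library size (one TMM scaling over the 36 AMO1 libraries), given in the order of replicates 1, 2 and 3. They are shares of the RNA, so a change in the share cannot be told apart from a change in the RNA of a cell.

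Promoters of 6 genes on which the results turn are shown first, since the composite element read by ATF4 with a C/EBP partner is spelled TGATGNAA, or TTNCATCA on the other strand, with N for any base. Each sequence runs 5′ to 3′ on the strand of the gene, from 250 bases before the start site to 50 after it, in RefSeq's annotation of GRCh38.p14, and capitals mark a match. Where the table holds several start sites for ASNS, BCAT1 or GARS1, the promoter with a match is shown. ASNS lies at chr7:97872359-97872658, minus strand, BCAT1 at chr12:24949052-24949351, minus strand, AARS1 at chr16:70289457-70289756, minus strand, GARS1 at chr7:30594628-30594927, plus strand, CHAC1 at chr15:40953221-40953520, plus strand, and PSAT1 at chr9:78296875-78297174, plus strand.
ASNS: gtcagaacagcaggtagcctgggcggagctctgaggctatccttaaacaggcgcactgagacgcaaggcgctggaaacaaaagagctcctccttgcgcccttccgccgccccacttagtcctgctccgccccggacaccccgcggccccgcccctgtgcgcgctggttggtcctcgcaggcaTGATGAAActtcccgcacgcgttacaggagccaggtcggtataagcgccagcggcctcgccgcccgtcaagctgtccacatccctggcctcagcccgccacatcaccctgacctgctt
BCAT1: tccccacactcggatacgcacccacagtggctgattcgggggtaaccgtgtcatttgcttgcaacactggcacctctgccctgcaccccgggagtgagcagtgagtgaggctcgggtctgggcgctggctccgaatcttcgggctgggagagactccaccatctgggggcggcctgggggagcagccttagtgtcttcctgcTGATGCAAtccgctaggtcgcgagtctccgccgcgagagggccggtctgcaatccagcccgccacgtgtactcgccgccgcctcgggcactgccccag
AARS1: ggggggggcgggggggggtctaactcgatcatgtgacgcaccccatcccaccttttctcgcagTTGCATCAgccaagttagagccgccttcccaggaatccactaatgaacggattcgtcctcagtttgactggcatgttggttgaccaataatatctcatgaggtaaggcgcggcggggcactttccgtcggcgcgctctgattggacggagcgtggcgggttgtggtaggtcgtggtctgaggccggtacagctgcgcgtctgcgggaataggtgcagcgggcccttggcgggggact
GARS1: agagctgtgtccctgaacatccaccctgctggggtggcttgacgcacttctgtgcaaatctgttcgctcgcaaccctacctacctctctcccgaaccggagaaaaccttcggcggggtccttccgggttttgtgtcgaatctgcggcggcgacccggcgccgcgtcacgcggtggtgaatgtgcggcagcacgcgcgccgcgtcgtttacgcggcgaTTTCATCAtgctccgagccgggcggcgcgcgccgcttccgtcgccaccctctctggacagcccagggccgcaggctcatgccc
CHAC1: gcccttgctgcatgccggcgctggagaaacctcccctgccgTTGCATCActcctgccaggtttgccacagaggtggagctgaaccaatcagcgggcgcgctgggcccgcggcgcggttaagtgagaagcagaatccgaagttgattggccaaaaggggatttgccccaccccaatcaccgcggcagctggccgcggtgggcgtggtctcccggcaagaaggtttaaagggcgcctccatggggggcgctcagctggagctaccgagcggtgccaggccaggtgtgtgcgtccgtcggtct
PSAT1: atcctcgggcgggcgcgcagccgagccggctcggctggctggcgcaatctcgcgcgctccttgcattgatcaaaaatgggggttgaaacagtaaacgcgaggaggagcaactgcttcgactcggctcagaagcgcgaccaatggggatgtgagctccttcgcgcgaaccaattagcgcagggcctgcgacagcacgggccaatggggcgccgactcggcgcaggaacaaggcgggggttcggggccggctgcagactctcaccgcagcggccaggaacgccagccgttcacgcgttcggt
The match starts at base 183 of the ASNS promoter, 203 of BCAT1, 64 of AARS1, 218 of GARS1 and 42 of CHAC1. PSAT1, the gene with the smallest adjusted p among those with a symbol, holds no match in this window, which says only that these letters are not there. CHAC1 holds the stricter spelling TTGCATCA, a case of TTNCATCA that also reads TGATGCAA on the other strand, and was not called. Of 35116 promoters of this length in the table, 1270 (3.62%) hold TGATGNAA on either strand and 304 (0.866%) hold TGATGCAA. Of 227 genes called higher that have a promoter in the table, 16 (7.05%) hold TGATGNAA in at least 1 promoter, against 221 of 8603 tested genes (2.57%) and 1 of 86 genes called lower (1.16%). A match is a description of the letters, and binding was not measured.

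A list of 36 ATF4 and ISR targets, of which 31 were tested, had 15 members called higher and 0 lower, against 2.6% of all tested genes called higher. The median log2 fold change was 0.304 over the 31, and -0.005 over all tested genes. The list was written with earlier results of these data known, so its count is a description. Members of serine and one-carbon metabolism are given first. PSAT1 (chr9:78297125-78330093, GRCh38) stood at 105, 108 and 119 CPM with DMSO and at 202, 189.7 and 227 CPM with halofuginol. Every halofuginol library lay above every DMSO library, and the log2 fold change was 0.90 ± 0.08 (SE, edgeR adjusted p = 8.9e-07). PSPH, the last enzyme of serine synthesis, had 40, 30.5 and 28.2 CPM with DMSO and 54.8, 48 and 47 CPM with halofuginol, a change of 0.60 ± 0.13 (SE, edgeR adjusted p = 0.011). The groups were apart, and the call was lost without DMSO replicate 2 or halofuginol replicate 1. PHGDH, the first enzyme of the pathway, was at 72.4, 58.5 and 62.8 CPM and 72.9, 75 and 74 CPM and did not pass the test, with 0.20 ± 0.09 (SE, edgeR adjusted p = 0.26). Mitochondrial folate enzymes were also called. MTHFD2 went from 413, 436 and 446 CPM to 593, 579.9 and 584 CPM, or 0.44 ± 0.06 (SE, edgeR adjusted p = 9.9e-05), and ALDH1L2 from 76.7, 77.8 and 80.3 CPM to 125, 121 and 113 CPM, or 0.61 ± 0.08 (SE, edgeR adjusted p = 1.1e-04). Both kept their calls in every alternative that was run. SHMT2, a serine hydroxymethyltransferase of mitochondria, had 0.17 and an edgeR adjusted p of 0.09, and was called in 4 of 14 alternatives.

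ASNS (chr7:97851677-97872542, GRCh38) had 134, 133 and 135 CPM with DMSO and 214, 210.3 and 231 CPM with halofuginol. The DMSO libraries lay within about 1 CPM of each other, and the change was 0.70 ± 0.07 (SE, edgeR adjusted p = 2.6e-06). CTH, which releases cysteine from cystathionine, was low, at 15.2, 9.81 and 15.3 CPM and 27.9, 20.8 and 25.3 CPM, and rose by 0.86 ± 0.19 (SE, edgeR adjusted p = 0.012). That call was lost without DMSO replicate 2 and without halofuginol replicate 1 or 3. PCK2, GPT2 and KLHL24 rose by 0.42, 0.33 and 0.49, and XPOT, the exporter of tRNA from the nucleus, by 0.37 ± 0.07. BCAT1 (chr12:24810024-24949101, GRCh38), which is not on the list, stood at 22.5, 19.3 and 24.6 CPM with DMSO and 57, 48.8 and 58 CPM with halofuginol. Its change was 1.30 ± 0.13 (SE, edgeR adjusted p = 2.6e-06), and the highest DMSO library held less than the lowest halofuginol library.

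Regulators on the list were called in part. ATF4 itself stood at 508, 509.7 and 477 CPM and 606, 566 and 594 CPM, with a change of 0.24 ± 0.06 (SE, edgeR adjusted p = 0.022). The groups were apart, and the call was lost when DMSO replicate 2 or any halofuginol library was left out. TRIB3, a pseudokinase that dampens ATF4, rose from 114, 101 and 116 CPM to 168, 161 and 173 CPM, by 0.60 ± 0.08 (SE, edgeR adjusted p = 8.6e-05). INHBE, an inhibin subunit used as an ISR readout, rose from 35.1, 31.9 and 35.7 CPM to 56.4, 49.8 and 60.7 CPM, by 0.69 ± 0.11 (SE, edgeR adjusted p = 0.0015). Both were called with each of the 6 libraries left out. PPP1R15A, the phosphatase subunit that reverses eIF2α phosphorylation, was called at 0.29 ± 0.08 (SE, edgeR adjusted p = 0.047), and lost its call whichever library was left out. DDIT3, known as CHOP, had 80.4, 78.5 and 74.9 CPM and 90, 89.1 and 100.4 CPM, groups that did not overlap but with 0.25 ± 0.09 (SE, edgeR adjusted p = 0.096), which did not pass. ATF3 had 16.5, 15.1 and 12.5 CPM and 13.9, 12.8 and 17 CPM, overlapping groups with a difference of -0.02, and CHAC1, a glutathione-degrading enzyme, had 14.2, 11.6 and 11.1 CPM and 15.5, 12.3 and 12 CPM with 0.11. SESN2, an inhibitor of mTORC1, had 0.21 ± 0.08 (SE, edgeR adjusted p = 0.13).

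Over the alternatives the number of list members called higher ran from 8 to 21, with 0 lower in each. Leaving out DMSO replicate 2 or halofuginol replicate 1 gave 8. It was 9 without halofuginol replicate 3, 10 without halofuginol replicate 2, 13 without DMSO replicate 1 and 15 without DMSO replicate 3. The 8 members called with each of the 6 libraries left out were PSAT1, ASNS, ALDH1L2, MTHFD2, TRIB3, INHBE, XPOT and KLHL24.

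**Figure D1:**
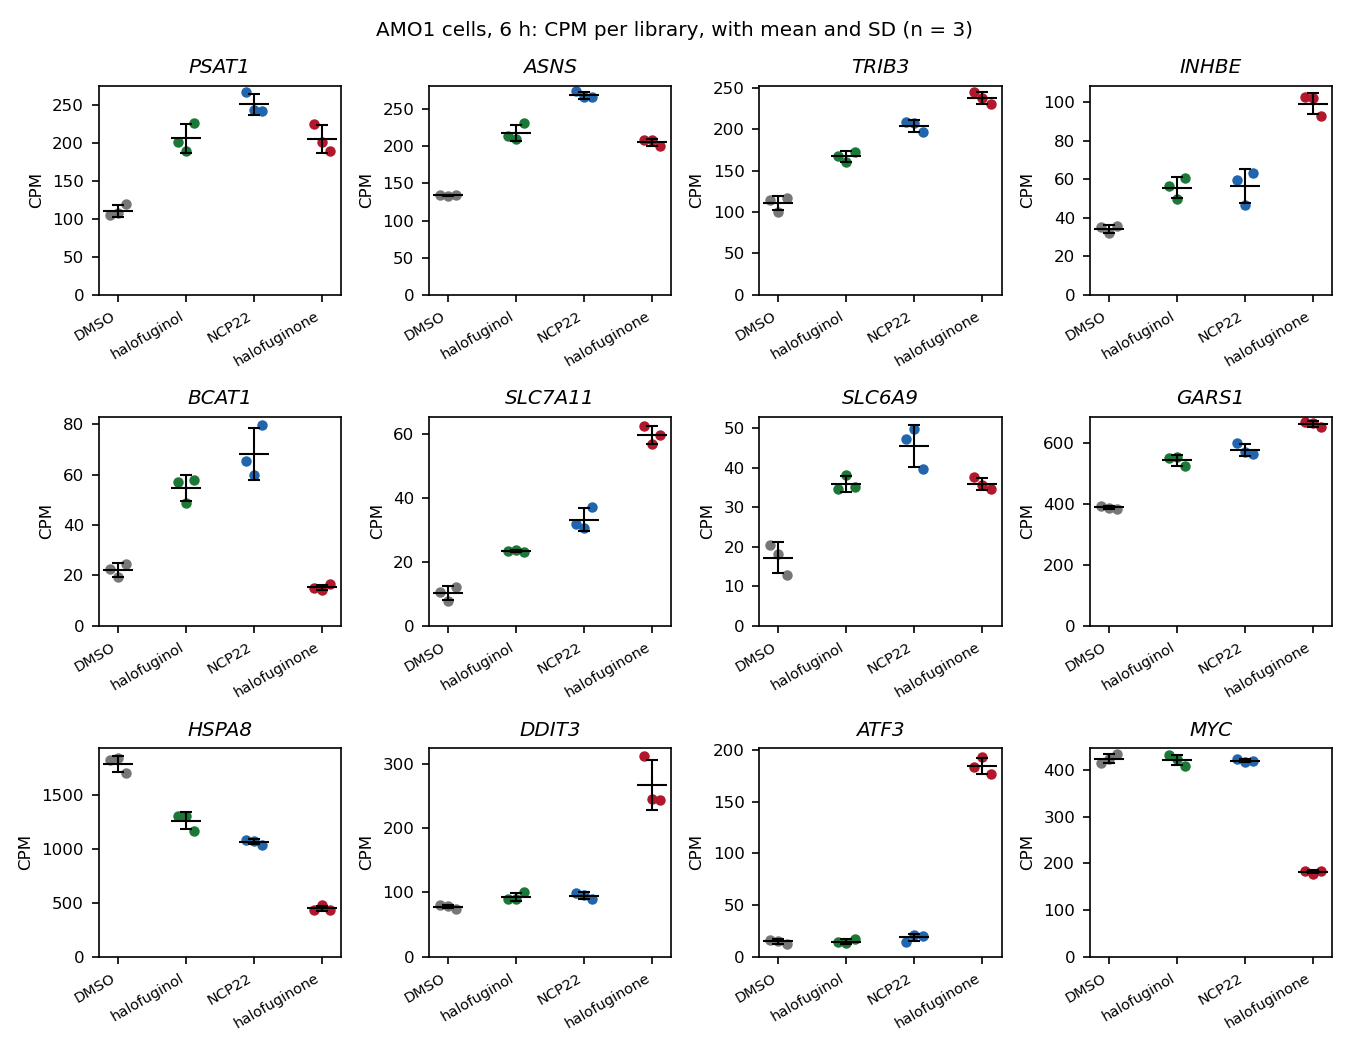
Expression of 12 genes in AMO1 cells after 6 h of DMSO, halofuginol, NCP22 or HFG (halofuginone). The y axis is CPM on a linear scale from 0, points are the 3 libraries of a group, and bars give the mean and SD. For PSAT1, ASNS, TRIB3, INHBE, BCAT1, SLC7A11, SLC6A9 and GARS1 the 3 halofuginol points lie above the 3 DMSO points, for HSPA8 below them, and for ATF3 and MYC among them. The 3 halofuginol points of DDIT3 also lie above its DMSO points, though the gene was not called.

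Of 14 amino acid transporters tested, 8 were called higher, 0 lower and 6 not called, against 2.6% of all tested genes higher, and the median log2 fold change was 0.329. SLC7A11, the light chain of the cystine and glutamate exchanger, had 10.6, 7.71 and 12.1 CPM with DMSO and 23.5, 23.6 and 23 CPM with halofuginol, and rose by 1.20 ± 0.18 (SE, edgeR adjusted p = 6.7e-04). SLC6A9, a glycine transporter, rose from 20.5, 18.2 and 12.8 CPM to 34.5, 38.3 and 35 CPM, by 1.06 ± 0.15 (SE, edgeR adjusted p = 3.3e-04). In both cases the halofuginol libraries lay close together and the DMSO libraries below them were more spread. SLC7A5, which imports large neutral amino acids, went from 412, 378 and 362.9 CPM to 500.4, 497 and 487 CPM, or 0.37 ± 0.06 (SE, edgeR adjusted p = 0.0016), and its heavy chain SLC3A2 from 302, 291 and 283 CPM to 344, 334 and 375 CPM, or 0.27 ± 0.06 (SE, edgeR adjusted p = 0.025). The glutamine carriers SLC1A5, SLC38A2 and SLC38A1 changed by 0.40, 0.45 and 0.36, and SLC7A1, which imports arginine and lysine, by 0.30. SLC1A4 and SLC7A6, further neutral and basic amino acid carriers, had 0.08 and 0.00 and were not called. Calls for SLC7A11, SLC6A9, SLC7A5, SLC1A5, SLC38A1 and SLC38A2 were kept with each of the 6 libraries left out. SLC7A1 lost its call without any one of the halofuginol libraries, and SLC3A2 without any of these or without DMSO replicate 2.

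Among 20 cytosolic aminoacyl-tRNA synthetases (aaRSs), 7 were called higher and 1 lower, with a median of 0.146. Over all tested genes 2.6% were called higher and 1.02% lower. GARS1, which charges glycine tRNA, stood at 393, 387 and 382 CPM with DMSO and 549, 555 and 523 CPM with halofuginol, and rose by 0.49 ± 0.06 (SE, edgeR adjusted p = 3.7e-05). It was the only aaRS called with each of the 6 libraries left out. AARS1 for alanine rose by 0.30, YARS1 for tyrosine by 0.27, WARS1 for tryptophan by 0.26, SARS1 for serine by 0.26, and IARS1 for isoleucine and TARS1 for threonine by 0.24 and 0.24. EPRS1, the enzyme that holds the prolyl activity, had 307, 325 and 337 CPM and 363.2, 374 and 371 CPM. These groups were apart, but the change of 0.20 ± 0.06 (SE, edgeR adjusted p = 0.079) did not pass the test. FARSA, a subunit of the phenylalanine enzyme, was called lower at -0.37 ± 0.08 (SE, edgeR adjusted p = 0.014), from 200.1, 193 and 167 CPM to 129.6, 154 and 148 CPM. With single libraries left out the list had from 1 to 9 members higher and from 0 to 3 lower, the lowest without halofuginol replicate 3 and the highest without DMSO replicate 3. Without halofuginol replicate 1 there were 2 higher and without halofuginol replicate 2 or DMSO replicate 2 there were 3. Without DMSO replicate 1 there were 4. The 17 mitochondrial aaRSs had 0 calls. Among these PARS2, the mitochondrial prolyl enzyme, was at 6.94, 10.9 and 7.14 CPM and 9.82, 8.99 and 9.34 CPM, with 0.17. Of 16 tested cytosolic aaRSs with a promoter in the table, 7 hold TGATGNAA, among them AARS1, GARS1, IARS1 and TARS1, which rose, and CARS1, MARS1 and NARS1, which were not called. Of the 10 ISR list members called higher that have a promoter in the table, 1 (ASNS) holds TGATGNAA and 0 hold TGATGCAA, and none of the 3 promoters of TRIB3 holds either.

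Of 19 heat shock genes tested, 0 were called higher, 6 lower and 13 not called, against 1.02% of all tested genes lower, and the median was -0.194. HSPA8 (chr11:123057489-123063230, GRCh38) stood at 1820, 1838 and 1702 CPM with DMSO and at 1307, 1306 and 1166 CPM with halofuginol, so every halofuginol library lay below every DMSO library, with a change of -0.50 ± 0.05 (SE, edgeR adjusted p = 3.2e-06). HSPH1, an HSP110 that recharges HSP70 with nucleotide, fell from 203, 206 and 217 CPM to 159, 166 and 159 CPM, at -0.37 ± 0.07 (SE, edgeR adjusted p = 0.0036). The HSP70 partner DNAJA1 was at -0.33, and AHSA1 and FKBP4, partners of HSP90, were at -0.34 and -0.27. HSPB1, a small heat shock protein, was called at -0.33 although its groups overlapped, with 281, 257 and 223 CPM and 232, 203 and 171 CPM. HSPA1B, the stress-induced HSP70, was at -0.28 (edgeR adjusted p = 0.069), and DNAJB1 and BAG3, further stress-induced members, at -0.20 and -0.01, none of them called. HSPA8 and HSPH1 were called with each of the 6 libraries left out. The list had 8 lower calls without DMSO replicate 3, 5 without DMSO replicate 1, 4 without halofuginol replicate 1, and 2 without DMSO replicate 2 or halofuginol replicate 2 or 3.

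Of 20 chaperone and unfolded protein response genes of the endoplasmic reticulum, 3 were called higher and 0 lower. Over all tested genes 2.6% were called higher and 1.02% lower. The median of the list was -0.051, and 8 of its 20 members had a positive sign. The 3 called members serve the disposal of misfolded proteins, while SYVN1, a further member with such a role, was not called. EDEM1, which marks glycoproteins for disposal, rose from 206, 185 and 213 CPM to 254, 277 and 284 CPM, or 0.43 ± 0.07 (SE, edgeR adjusted p = 0.0015), and SEL1L, of the export ubiquitin ligase, by 0.38 ± 0.06 (SE, edgeR adjusted p = 0.0018). DNAJB9, a cochaperone, rose by 0.37 and lost its call with the GC offset described below and without any library but DMSO replicate 3. HSPA5, the main chaperone of this compartment, stood at 1231, 1284 and 1256 CPM and 1209, 1181 and 1229 CPM, close groups with -0.06, and XBP1 at -0.05. ERN1, the sensor kinase that splices XBP1 mRNA and no member of the list, was named after its values were seen. It rose from 302, 302 and 340.0 CPM to 388, 405 and 408 CPM, or 0.35 ± 0.06 (SE, edgeR adjusted p = 0.0038), in every alternative. CCPG1, an autophagy receptor of the endoplasmic reticulum, rose from 159.7, 174 and 197 CPM to 288, 273 and 297 CPM, or 0.69 ± 0.07 (SE, edgeR adjusted p = 8.3e-06).

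Of 23 tested plasma cell and myeloma factors 1 was called, near the 3.62% of all tested genes. It was IRF4, the lineage factor on which myeloma lines depend, at 0.27 (edgeR adjusted p = 0.025), and only DMSO replicate 3 could be left out without loss of its call. MYC stood at 415, 423 and 435 CPM and 432, 424 and 409 CPM, overlapping groups with -0.01 ± 0.06. SDC1, the plasma cell surface proteoglycan CD138, had 3567, 3501 and 3112 CPM and 2985, 3081 and 3055 CPM, with -0.16 ± 0.04 (SE, edgeR adjusted p = 0.053). TCF3 and PIM2 had -0.17 and -0.04 and were not called. BCL2 and CASP8 were the 2 calls among 17 BCL2 family and death receptor genes, at 0.26 and 0.27. Lists of 20 p53 targets, 23 G1/S genes, 8 replication-dependent histones, 18 interferon-stimulated genes, 30 proteasome subunits, 9 genes of proline synthesis and catabolism and 6 matrix genes had 0 calls in either direction, which at this size is also near that share. Of 26 G2/M genes CENPE was called, at 0.63, of 77 ribosomal protein genes RPS15, at -0.20, and of 24 hypoxia and glycolysis genes PKM and PFKFB3, at -0.17 and -0.31. FASN, the fatty acid synthase, which no list holds, fell from 499, 482 and 469.5 CPM to 336, 349.6 and 363.1 CPM, or -0.47 ± 0.06 (SE, edgeR adjusted p = 9.9e-05). RPS15, PKM, PFKFB3 and CASP8 were each called in at most 5 of 14 alternatives and BCL2 in 8, and the sign of RPS15 turned with a GC and length offset. Single calls among other lists were SGK1 of 20 immediate early genes at 0.38, NFKB2 of 10 NF-κB targets at -0.26, ATP5F1E of 48 respiratory chain subunits at -0.44 and CD79B of 2 mature B cell markers at -0.35. The respiratory chain list had a median of -0.103, and 3 of its 48 members had a positive sign.

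The fold change followed the GC content of the transcript. Over 10438 genes with a GC value (98.5% of those tested) Pearson's r of the log2 fold change with GC was -0.467 and Spearman's rho -0.541. These are descriptions across genes of the same 6 libraries, which are not independent replicates. When the genes were put in 10 groups of like size by GC, the median log2 fold change went from 0.196 in the lowest group, with a GC of 30.7% to 38.2%, to -0.160 in the highest, with 61.6% to 74.8%, and moved down at each step. The lowest group held 102 genes called higher and 0 lower, the highest 2 higher and 36 lower. Genes called higher had a median GC of 38.9% (270 genes) and those called lower 59.4% (104 genes), against 47.95% over all. Median transcript lengths were 6047.5, 3112 and 3579 bases in the same order.

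**Figure D2:**
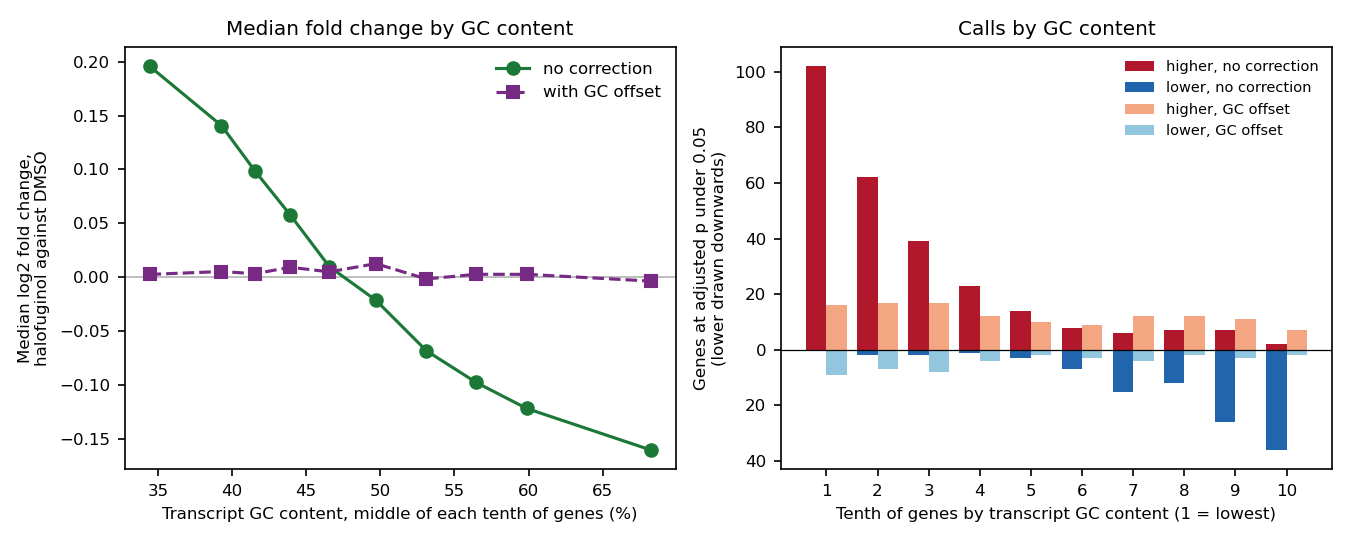
Halofuginol against DMSO at 6 h by transcript GC content. Left, the median log2 fold change in 10 groups of genes against their GC content in percent, without correction (circles) and with the GC offset (squares). Right, the number of genes called in each group, drawn upwards for higher and downwards for lower. Without correction the medians run from 0.196 to -0.160, and with the offset they stay between -0.004 and 0.013, as the offset is built to do.

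The trend was also measured in each library. The slope of log2 CPM on GC, against the mean of the 18 AMO1 libraries at 6 h, was 0.198, 0.156 and 0.0502 per 10 percentage points in DMSO replicates 1, 2 and 3, and 0.0121, 0.00616 and 0.0138 with halofuginol. All DMSO slopes lay above all halofuginol slopes, DMSO replicate 3 nearest to them, and the means differed by -0.124. A two-sided exact permutation test gave p = 0.1, the smallest p that 3 against 3 libraries allow. The trend was known from earlier work on these data before the test was chosen, so this p describes a pattern already seen. NCP22, NCP26 and HFG libraries had slopes from -0.158 to 0.00112, all below those of halofuginol, and carfilzomib libraries from 0.0528 to 0.0998. In the direct fits of halofuginol against NCP22 and HFG, given below, r of the log2 fold change with GC was 0.210 and 0.158.

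**Figure D3:**
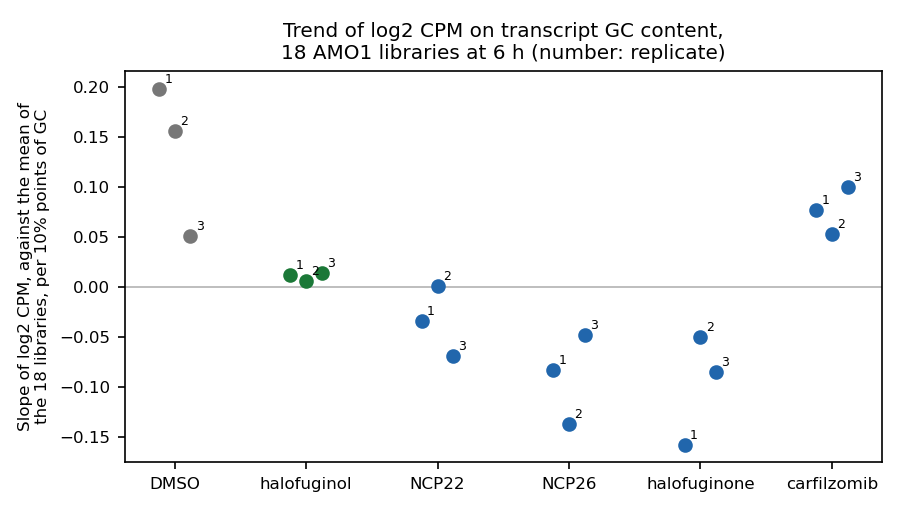
Slope of log2 CPM on transcript GC content for each of the 18 AMO1 libraries at 6 h, in log2 units per 10 percentage points of GC and against the mean of these libraries. Numbers beside the points are replicates. DMSO replicates 1 and 2 are highest at 0.198 and 0.156, and the 3 halofuginol libraries lie together between 0.00616 and 0.0138.

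When each library's own lowess trend on GC was taken out as an offset, r went to -0.013, which the offset is built to bring about. With it 173 genes were called, 128 higher (1.21%) and 45 lower (0.425%). Of these 128 were also called without the offset, 74% of the 173 and 33.4% of the 383. By their sign without the offset, 107 of the shared calls were higher and 21 lower. The ISR list had 18 members higher with the offset, at a median of 0.335, the transporters 8 at 0.370, the cytosolic aaRSs 6 higher and 0 lower at 0.104, and the heat shock genes 0 higher and 6 lower at -0.165. PSAT1 was then at 0.82 (edgeR adjusted p = 4.6e-07), ASNS at 0.63 (edgeR adjusted p = 1.0e-06), BCAT1 at 1.12 (edgeR adjusted p = 4.7e-06) and HSPA8 at -0.52 (edgeR adjusted p = 4.6e-07). TRIB3, SLC1A5 and SLC7A5, whose transcripts are rich in GC, were at 0.74, 0.54 and 0.50, and SESN2 passed the test at 0.34 (edgeR adjusted p = 0.0054). Of 48 nuclear-encoded respiratory chain subunits 5 were called lower with the offset, at a median of -0.0738, and 1 without it. Over all tested genes 0.425% were called lower with the offset. Other calls were lost. KRAB zinc finger genes, 2 of 35 called higher at a median of 0.210 without the offset, had 0 calls and a median of 0.0758 with it. All 3 calls among 20 splicing factors (SRSF11, LUC7L3 and PNISR) and the 2 among 13 mitochondrially encoded transcripts (MT-ATP6 and MT-ND4) were lost. Other genes above that lost their calls include KLHL24, IARS1, TARS1, FARSA, HSPB1, NFKB2 and CD79B. The BCL2 family and death receptor list and the hypoxia and glycolysis list, with 2 calls each without the offset, had 1 each with it. Whether the GC trend arose in the cells or in the preparation of the libraries was not tested.

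Across the 14 alternatives set out with the fits, which comprise other tools and filters, a wider fit, the replicate number, the GC offsets and each library left out, 39 genes were called each time, 33 higher and 6 lower. A gene to which DESeq2 gave no adjusted p, such as BCAT1, is not among them. Besides those above they include IL6ST, the shared receptor of IL-6 type cytokines, at 0.50, PDCD4, an inhibitor of translation, at 0.41, and FAM107B at 0.73. ACTG1, a cytoplasmic actin, fell from 2648, 2660 and 2640 CPM to 2144, 2243 and 2194 CPM, by 0.27 on the log2 scale, and CLUH, which binds mRNAs of mitochondrial proteins, was at -0.39. Of these, all but FAM107B were named after their values were seen.

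The largest fitted changes belonged to genes whose replicates did not hold together. ENSG00000269339, an identifier with no symbol in the name tables, had 0 counts in all 3 DMSO libraries and 266, 353 and 1352 CPM with halofuginol, at least 1817-fold higher against 3 counts over the DMSO group. ITPRIPL2 had 30.8, 7.71 and 50.7 CPM with DMSO and 150.2, 397 and 1079 CPM with halofuginol, and PPIP5K2 had 153, 69.7 and 242 CPM and 430.4, 814 and 2592 CPM. In all 3 genes halofuginol replicate 3 was highest and replicate 1 lowest. All 3 were called in each of the 14 alternatives and are among the 39 genes above. That count thus also holds genes whose replicates lay far apart. DMSO libraries of 24 h lay at 1223 to 1976, 1137 to 1797 and 2774 to 3825 CPM in the same order, far above those of 6 h. CTAG1B, a cancer-testis antigen that shares 50.6% of its 31-mers with other genes, was called at 1.61 with overlapping groups of 9.26, 7.71 and 8.92 CPM with DMSO and 8.56, 30 and 40.7 CPM with halofuginol. SMN2, which shares 93.7%, was called at -1.71 with 24.5, 27.7 and 36.7 CPM with DMSO and 6.65, 18.2 and 0 CPM with halofuginol. Values of genes that share so many 31-mers depend on how kallisto divided the reads. KANSL2, UBXN10 and ESPN, among the genes called lower, each had a high value in DMSO replicate 1, at 227, 53.2 and 18.5 CPM against at most 95.6, 26 and 4.64 CPM in the other DMSO libraries.

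HFG, which differs from halofuginol in the ketone, was compared at the same dose and time. Halofuginol and HFG libraries differed in 5588 of 10810 genes (51.7%), 2825 higher with halofuginol (26.1%) and 2763 lower (25.6%). DMSO took no part in this fit. With NCP22 below, 2 pairs of compounds were compared, each with p-values adjusted over all of its genes. On the ISR list 7 members were higher with halofuginol, 20 lower and 4 not called. ATF3 and DDIT3 were among the lower members. ATF3 stood at 13.9, 12.8 and 17 CPM with halofuginol and 184, 193 and 177 CPM with HFG, a difference of -3.68 ± 0.10 (SE, edgeR adjusted p = 1.1e-14). DDIT3 was at 90, 89.1 and 100.4 CPM and 313, 246 and 245 CPM, with -1.53 ± 0.09 (SE, edgeR adjusted p = 3.3e-10), and PPP1R15A differed by -1.23, INHBE by -0.84 and TRIB3 by -0.52. The cystine exchanger subunits SLC7A11 and SLC3A2 differed by -1.36 and -0.87. In none of these did the groups overlap, as was so for 28.9% of all genes tested on the higher and 28.5% on the lower side.

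For PSAT1 and ASNS no difference between HFG and halofuginol was called. PSAT1 had 226, 201 and 189 CPM with HFG, values that overlapped those of halofuginol, and the difference was 0.00 with a 95% interval from -0.15 to 0.16 on the log2 scale. For ASNS, with 208, 208 and 200.3 CPM under HFG, it was 0.08 with an interval from -0.05 to 0.20. With the GC offset ASNS passed the test as higher with halofuginol, at 0.15 (edgeR adjusted p = 0.029). SLC6A9 differed by 0.01 (-0.21 to 0.23), SLC7A1 by -0.01 (-0.12 to 0.09), CCPG1 by -0.12 (-0.25 to 0.01) and EPRS1 by -0.10 (-0.21 to 0.01). These intervals bound the difference and do not show that the compounds act alike. BCAT1 was higher with halofuginol. It had 14.9, 14.1 and 16.4 CPM with HFG, below every halofuginol library, and differed by 1.81 ± 0.12 (SE, edgeR adjusted p = 2.2e-09). MTHFD2 was also higher with halofuginol, by 0.53, as were ATF4 by 0.25, GPT2 by 0.30 and DDIT4, an inhibitor of mTORC1, by 1.17. Of 20 cytosolic aaRSs 5 were higher with halofuginol and 7 lower, and of 14 transporters 4 were higher and 5 lower. Over all genes of this fit 26.1% were higher and 25.6% lower, so the higher counts lie near that share.

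**Figure D4:**
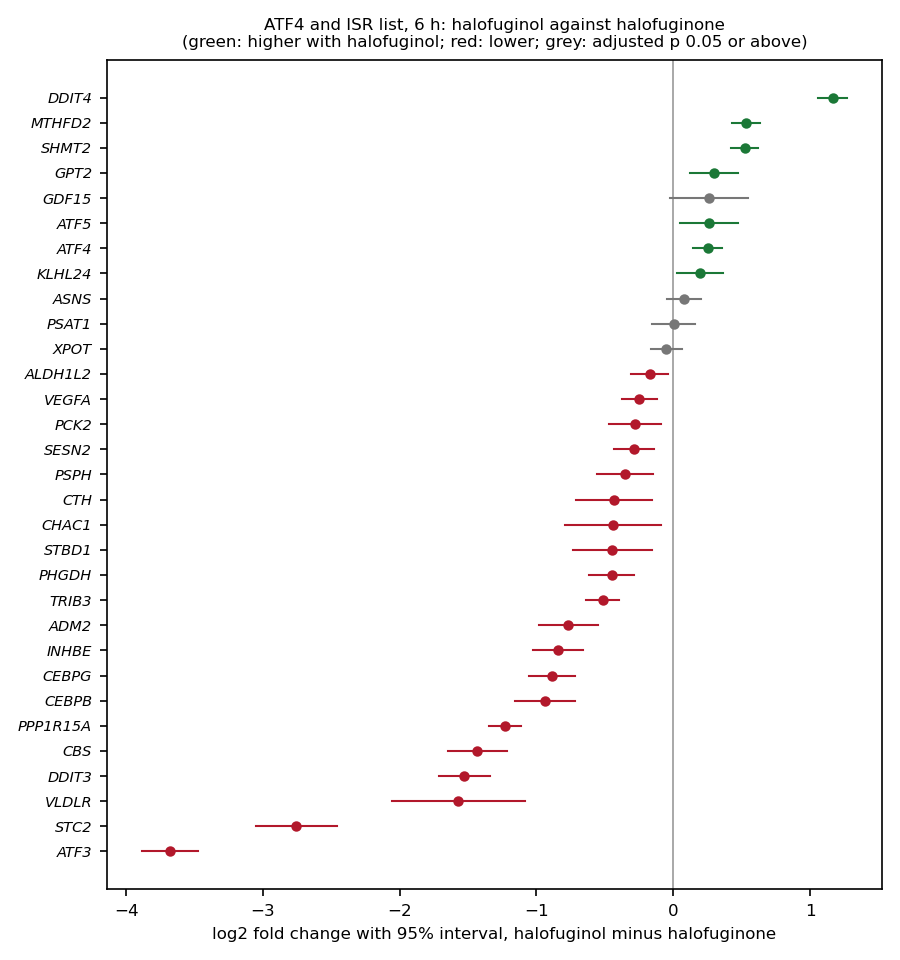
Log2 fold change of halofuginol against HFG (halofuginone) at 6 h for the 31 tested members of the ATF4 and ISR list, with 95% intervals. Green points passed an adjusted p of 0.05 as higher with halofuginol (7), red points as lower (20), and grey points did not pass (4). ATF3 is lowest at -3.68 and DDIT4 highest at 1.17.

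Other gene groups are to be read beside the same shares of all tested genes, 26.1% higher and 25.6% lower. Heat shock genes were higher with halofuginol in 13 of 19 cases and lower in 2, with HSPA8 at 1307, 1306 and 1166 CPM against 431, 475 and 435 CPM, or 1.48 ± 0.05 (SE, edgeR adjusted p = 4.7e-13). Of 20 endoplasmic reticulum genes 17 were higher and 1 lower, with HSPA5 at 0.70, and all 77 ribosomal protein genes were higher, at a median of 0.456. Plasma cell factors were higher in 13 of 23 cases and lower in 7, with IRF4 at 1.64, MYC at 1.21, SDC1 at 1.08 and PIM2 at 1.07. MYC stood at 183, 178 and 184 CPM with HFG, below every halofuginol and DMSO library. HILPDA, a hypoxia-responsive lipid droplet protein, was at 81.8, 93.7 and 93.7 CPM with halofuginol and 5.09, 4.88 and 6.22 CPM with HFG, a difference of 3.99 ± 0.13 (SE, edgeR adjusted p = 1.6e-13). All 12 tested replication-dependent histones were lower with halofuginol, H2BC11 by -3.45. The filter kept 8 members of this list against DMSO at 6 h and 9 against NCP22. Some thus entered this fit through the HFG libraries, where they are high, and the filter favoured their direction. Since histone mRNAs of this kind largely lack a poly(A) tail, their level in polyadenylated RNA is not that of all their mRNA. Of 9 proline genes 6 were higher and 0 lower, and of 20 p53 targets 16 were higher and 1 lower. DMSO was not in these fits, so the values give the distance between 2 treated groups.

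NCP22, another inhibitor of the prolyl enzyme, known by its code name, was also compared. At the same dose and time 28 of 10778 genes differed (0.26%), 15 higher with halofuginol (0.139%) and 13 lower (0.121%), and at an unadjusted p under 0.05 there were 1027 (9.53%). Groups did not overlap for 7.65% of genes higher and 7.36% lower. On the ISR list 3 were lower with halofuginol and 0 higher. ASNS had 214, 210.3 and 231 CPM with halofuginol and 275, 266 and 266 CPM with NCP22, or -0.31 ± 0.05 (SE, edgeR adjusted p = 0.0055). PSAT1 had 267, 244 and 243 CPM with NCP22, or -0.29 ± 0.06 (SE, edgeR adjusted p = 0.032), and TRIB3 had 209, 208 and 196 CPM, or -0.30 ± 0.06 (SE, edgeR adjusted p = 0.012). The NCP22 libraries lay above the halofuginol libraries for all 3 genes. CCPG1 differed by -0.49 ± 0.05 (SE, edgeR adjusted p = 1.7e-05) and held this call in every alternative. HSPA8 was higher with halofuginol, by 0.24 ± 0.05 (SE, edgeR adjusted p = 0.033), as were FASN by 0.23 and the sterol genes HMGCS1 and INSIG1 by 0.30 and 0.22. The order of DMSO, halofuginol and NCP22 was thus upward for PSAT1, ASNS and TRIB3 and downward for HSPA8, without overlap between neighbours. Each of these genes was called against both neighbours, so the order follows from how they were picked. The other 28 tested ISR members were not called against NCP22. MYC differed by 0.00 with a 95% interval from -0.10 to 0.10, and BCAT1 by -0.34, from -0.55 to -0.13, which did not pass the adjusted test. Without halofuginol replicate 1 or 2 the count fell to 9 or 4. With all 6 AMO1 groups of 6 h in the fit it was 2, and ASNS, PSAT1, TRIB3 and HSPA8 were not among them. The calls for ASNS, PSAT1, TRIB3 and HSPA8 were lost without halofuginol replicate 1 and without halofuginol replicate 2, and without NCP22 replicate 1 those for PSAT1 and TRIB3 and without NCP22 replicate 2 that for HSPA8.

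After 24 h little of the 6 h pattern passed the test. Halofuginol and DMSO differed in 20 of 10943 genes (0.183%), 8 higher (0.0731%) and 12 lower (0.11%), and at an unadjusted p under 0.05 in 1129 (10.3%). Of 31 ISR members 0 were called by edgeR, 25 had a positive sign, and the median was 0.132, while DESeq2's Wald test called 65 genes in all. PSAT1 stood at 81.9, 79.9 and 88.4 CPM with DMSO and 95.6, 87.5 and 94.5 CPM with halofuginol, or 0.14 ± 0.08 (SE, edgeR adjusted p = 0.57), and BCAT1 at 16.8, 18.7 and 14.7 CPM and 17.5, 14.1 and 20.3 CPM, which overlap. FASN was lower as at 6 h, at 256.4, 264 and 282 CPM with DMSO and 191, 183 and 177 CPM with halofuginol, or -0.55 ± 0.06 (SE, edgeR adjusted p = 8.7e-05). It held its call with each library left out. With all 6 AMO1 groups of the time point in the fit 0 genes were called at 24 h, and FASN did not pass at 6 h (edgeR adjusted p = 0.062). HSPH1 at -0.40 and HMGCS1 at -0.36 were lower too, and the ferritin subunits FTH1 and FTL were higher, by 0.29 and 0.27. Leaving out a DMSO library gave 3, 3 and 7 calls for replicates 1, 2 and 3, and leaving out halofuginol replicate 3 gave 13. The trend on GC was near flat, at r = -0.0227.

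The difference between the effects at 24 h and 6 h was tested in a fit of the 12 libraries, chosen after the data were seen. It passed for 45 of 10965 genes (0.41%), 11 upward (0.1%) and 34 downward (0.31%), and for 394 genes without DMSO 6 h replicate 3. PSAT1 differed by -0.74 ± 0.12 (SE, edgeR adjusted p = 0.0036), BCAT1 by -1.22 ± 0.21 (SE, edgeR adjusted p = 0.0054), ASNS by -0.55 ± 0.10 (SE, edgeR adjusted p = 0.006) and SLC7A5 by -0.46 ± 0.08 (SE, edgeR adjusted p = 0.0054), each with the smaller effect at 24 h. TRIB3 at -0.33, GARS1 at -0.32, ATF4 at -0.03 and FASN at -0.07 did not pass, though TRIB3 and GARS1 did with the GC offset. Pellets of 6 h were frozen overnight and those of 24 h kept on ice before extraction, so exposure time and storage cannot be told apart. The numbers that end the column names run from 1 to 22 over the first 22 AMO1 libraries, which hold all of those at 6 h and the 3 of DMSO at 24 h, and then start again in a set that holds the 3 of halofuginol at 24 h. What the numbers mark is not given, and if they mark a sequencing run, run and treatment cannot be told apart at 24 h.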

How the data were processed

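RNAseq was done on 66 samples, of which the 3 halofuginol and 3 DMSO libraries of AMO1 at 6 h are the subject. The deposited table holds read counts per gene, which the authors made with kallisto pseudoalignment of 31-mers. For the kallisto version, the annotation and the summing of transcripts, each was not given in the sources used here. The processing notes name hg19 and the study's methods GRCh38, so gene positions and GC content come from GENCODE 44 (GRCh38) by gene identifier, which matched 19299 of 20167 identifiers (95.7%). Pseudoaligned counts of genes that share 31-mers are estimates. Groups follow the sample titles. Members and gene lists were chosen with earlier results of these data known.

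Counts were filtered with filterByExpr (at least 10 counts, total of at least 15), TMM-normalised and tested with the quasi-likelihood test of edgeR 4.0.16 in R 4.3.3 on the 6 libraries compared, with Benjamini-Hochberg adjustment and a threshold of 0.05. Library totals, which limit precision beside the spread between the libraries of a group, were 2913987 to 4067217 counts. Alternatives were DESeq2 1.42.0 (size factors or Wald test), no filter, all AMO1 groups of the time point, the replicate number as a block, a lowess offset on GC (span 0.3), on GC and length, or on GC with the block, and each library left out. Added after the data were seen were the test between times and the GC offset with a library left out. The code was tested on simulated data. Genes were named by size of change among calls with groups apart and at least 5 CPM, by adjusted p among genes called in all alternatives, as the leading 4 of each list, or as a preset list of ISR, myeloma and target genes. Other list members and genes that are named were chosen after their values were seen. Other AMO1 and resistant-line samples enter only as stated. A result that rests on a withheld item is not reported here.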

Additional observations from a re-analysis of the deposited data

Results flagged for a closer look

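The effect of halofuginol on 22 genes named by the rules or lists differed between 6 h and 24 h in edgeR's test of the difference. Values are the log2 effect at 24 h minus that at 6 h. Over all 10965 genes of this fit the test passed for 45 (0.41%). Many of the named genes were chosen by their values at 6 h, so a smaller effect at 24 h is in part set by the choice. Among amino acid genes the difference was -0.74 for PSAT1, -1.22 for BCAT1, -0.55 for ASNS, -0.65 for ALDH1L2, -0.37 for MTHFD2, -0.46 for SLC7A5, -0.40 for SLC7A1 and -0.40 for WARS1. Genes that rose at 6 h and had a lower log2 fold change at 24 h gave -0.50 for CCPG1, -0.87 for FAM107B and -1.07 for SAMD12. For CENPE the difference was -0.93 and for IRF4 -0.37, each larger in size than the rise at 6 h. That was also so for SLC7A5, SLC7A1, WARS1, ALDH1L2 and FAM107B. HSPA8, which fell at 6 h, had 0.39, and the glycolytic genes GAPDH and PFKFB4 had 0.34 and 0.47. ATP5F1E had 0.73 and shares 23.4% of its 31-mers with other genes.

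Genes with replicates far apart at 6 h gave -4.10 for ITPRIPL2 and -2.90 for PPIP5K2. ENSG00000185990 and ENSG00000198444, which have equal values in every library, each gave -3.19, and ENSG00000185128 gave 1.59. Without DMSO 6 h replicate 3 the count over all genes was 394 against 45. Exposure time and storage of the pellets cannot be told apart.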

How the results depend on the processing

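The 383 calls of halofuginol against DMSO at 6 h became 672 with no filter, 151 with all 6 groups of the time point in the fit, 173 with the GC offset, 171 with the GC offset and replicate block, and 206 with the GC and length offset. With single libraries left out they ranged from 94 to 1410, and with the GC offset as well they were 114, 103 and 314 without DMSO replicate 1, 2 and 3 and 97, 75 and 97 without halofuginol replicate 1, 2 and 3. Against NCP22 28 calls became 130 with no filter, 2 with all groups, 85 with the replicate block and 55 with the GC offset and replicate block, 4 to 40 with a library left out, and 10 to 41 with the GC offset as well (12 without halofuginol replicate 2). At 24 h 20 calls became 65 with the Wald test, 100 with no filter, 0 with all groups, 5 with the replicate block, 39 with the GC offset, 8 with the GC offset and replicate block, and 76 with the GC and length offset, 3 to 20 with a library left out, and 13 to 44 with the GC offset as well (32 without halofuginol replicate 2). The 45 calls for the difference between times became 241 with no filter, 7 with all 12 groups and 177 with the Wald test, and 13 to 394 with a library left out. Against HFG 5588 calls stayed between 4345 and 5770. The GC slope difference of -0.124 ran from -0.0924 to -0.166 with a library left out. Higher genes were 71.8% of the 6 h calls, 58.1% without DMSO replicate 3 and 82.8% without halofuginol replicate 3. Signs turned for RPS15 against DMSO, to 0.00567 with the GC and length offset and 0.00386 with the GC offset without DMSO replicate 2, and against HFG with the GC and length offset for SLC38A1 to 0.165, LARS1 to 0.145, ALDH1L2 to 0.0148 and XPOT to 0.106, and for SLC38A1 to 0.116 with the GC offset without halofuginone replicate 1. The cause was not tested. Deviations from the group mean of same-numbered 6 h halofuginol and DMSO libraries correlated at -0.030, -0.046 and -0.019. The replicate block gave 466 calls against DMSO at 6 h. With 3 libraries in a group these values cannot settle whether the replicate numbers pair the samples. At library totals of 2913987 to 4067217 counts, genes under the filter were not tested.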
